A study of Homo sapiens with 6 samples.

Results

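The D-type cyclins, the kinases CDK4 and CDK6 that they activate, the inhibitors of these complexes and the retinoblastoma protein RB were followed in HUVECs, primary endothelial cells of the human umbilical vein, after transfection of a small interfering RNA (siRNA). Members were all probe sets of the Affymetrix Human Genome U133 Plus 2.0 array that the platform annotation assigns to exactly 1 of 10 symbols: CCND1, CCND2, CCND3, CDK4, CDK6, RB1, CDKN1B, CDKN1C, CDKN2C and CDKN2D. This gave 26 probe sets of 9 genes, out of 54613 probe sets and 19777 genes tested on the array. No probe set was listed for CDKN2C, which encodes p18, so that gene was not analysed here.

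Control cells received a scrambled siRNA and the other cells an siRNA against ANRIL, a long noncoding RNA also named CDKN2B-AS1, with 3 arrays per group and 1 array per transfected sample. Both groups were commercially supplied HUVECs grown in medium with serum and with fibroblast, epidermal, vascular endothelial and insulin-like growth factors, and both were transfected with the TransIT-X2 reagent. The sources used here do not give the time from transfection to harvest, or whether the 3 sets of cells came from different donors. The tests therefore take the spread between these samples as their error, and that spread may be technical. The study compared the groups to find genes that respond to loss of ANRIL.

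In the G1 phase of the cell cycle, mitogens raise the D-type cyclins, which bind CDK4 or CDK6. The active kinases phosphorylate RB, which then releases E2F transcription factors, and these turn on genes of DNA replication. INK4 proteins (p16, p15, p18 and p19) bind CDK4 and CDK6 and keep the cyclins off, while the CIP/KIP proteins p21, p27 and p57 bind whole cyclin and kinase complexes. ANRIL is transcribed from the chromosome 9p21 locus that also holds CDKN2A and CDKN2B, the genes of p16 and p15, and these proteins bind the members CDK4 and CDK6.

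The siRNA against ANRIL is shown because only the ANRIL siRNA group received it. The control group received a scrambled siRNA instead, which is not shown. The labels give the siRNA against ANRIL as a duplex of 25 and 27 bases in which 25 bases pair. Capitals in the antisense strand mark bases 2 to 8 of that strand as supplied. These positions are known as the seed in a guide strand. Whether cells shorten this strand first, which would move the seed, was not examined.
sense strand: ggauaugugccaugaguaagaauaa
antisense strand: uUAUUCUUacucauggcacauauccau
Whether these bases, or the seed of a shortened strand, have matches in transcripts of the members was not analysed here.

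Promoters bear on these genes because MYC binds the E-box CACGTG and E2F factors bind sites such as TTTCCCGC, TTTCGCGC, TTTGCCGC and TTTGGCGC. Windows of 300 bases, from 250 before to 50 after an annotated start, were taken from RefSeq (GRCh38.p14), with both strands searched. They covered 7 of the 10 genes in 12 windows, and CCND1, CCND2 and CDKN1C had no entry in the table. None of the 12 windows held 1 of the 4 E2F sequences, which stood in 3.31% of all 35116 windows. The only RB1 window was chr13:48476200-48476499 (plus strand), and whether it holds the main start of RB1 was not examined. Starts of these genes outside the 12 windows were not searched, so an E2F site there would be missed. An E-box stood in 4 of the 12 windows, those of CDK4, CDK6 and CDKN2C, against 7.26% of all windows. The window of the single CDK4 start (chr12:57752261-57752560, minus strand) held 3 E-boxes, the first beginning 216 bases before the start, and that of 1 of the 2 CDK6 starts (chr7:92836524-92836823, minus strand) held 1, beginning at base 31 after the start. Capitals mark CACGTG in both, and a match is a description of these letters only.
CDK4: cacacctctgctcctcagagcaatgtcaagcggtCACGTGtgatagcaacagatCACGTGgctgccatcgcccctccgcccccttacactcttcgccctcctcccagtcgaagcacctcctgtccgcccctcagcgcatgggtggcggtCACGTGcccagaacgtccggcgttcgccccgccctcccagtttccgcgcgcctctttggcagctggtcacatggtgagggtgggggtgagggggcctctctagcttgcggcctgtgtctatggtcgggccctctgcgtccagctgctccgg
CDK6: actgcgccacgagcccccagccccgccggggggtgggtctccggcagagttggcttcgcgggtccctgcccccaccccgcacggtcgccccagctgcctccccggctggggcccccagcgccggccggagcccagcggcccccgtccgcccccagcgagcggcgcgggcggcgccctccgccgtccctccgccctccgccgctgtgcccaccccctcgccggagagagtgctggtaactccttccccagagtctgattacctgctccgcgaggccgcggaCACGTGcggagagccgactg

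Values below are the deposited log2 intensities, and the medians of the 6 arrays lay between 6.14 and 6.23. Precision is limited by having 3 arrays a group. The probe set of ANRIL itself lay at percentile 9.4 of mean signal, at 4.08, 4.05 and 3.95 with control siRNA and 3.69, 4.05 and 4.05 on the ANRIL siRNA arrays, too dim and too variable to check the knockdown. All 10 endothelial markers examined were bright (median percentile 96.8), and their mean ran from 11.79 to 11.86 with control siRNA and from 11.62 to 11.72 with ANRIL siRNA, with 10 of 10 lower (8 of 10 after cyclic loess normalization). Of all genes in the tenth decile of signal, 87.7% were lower with ANRIL siRNA. Means of the markers of other cells ran from 5.76 to 5.83 against 5.81 to 5.98 for leukocytes (8 markers, 6 of them higher, 5 after cyclic loess), from 7.61 to 7.71 against 7.63 to 7.68 for smooth muscle, from 6.05 to 6.11 against 6.04 to 6.07 for fibroblasts and from 6.99 to 7.02 against 6.97 to 7 for epithelium. For ACTB the 3' signal minus the 5' signal was 0.54 ± 0.05 (SD, n = 3) in the control group and 0.72 ± 0.13 in the ANRIL siRNA group (two-sided exact permutation p = 0.2), and for GAPDH it was 0 ± 0.01 and 0.06 ± 0.03 (exact permutation p = 0.1, the smallest that 3 against 3 arrays can give). The part of these differences in the results below was not tested. In bulk samples, fewer cells of a type and less RNA per cell cannot be told apart.

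None of the 9 genes passed the test at its brightest probe set, and the differences were small. Differences are ANRIL siRNA minus control siRNA, and a gene passed where its limma p, adjusted by the Benjamini-Hochberg method over all genes, was under 0.05. Over the 9 genes the adjusted p ran from 0.215 for CCND2 to 0.953 for CDK6. The fit called 0 of 19777 genes (0%) and 0 of 54613 probe sets (0%), members included. At an unadjusted p under 0.05, 1 of the 9 genes (CCND2) lay lower and none higher, where 8.16% of all genes lay lower and 9.83% higher. With an intensity-trended robust prior, which called 2.15% of genes lower and 0.581% higher, the smallest adjusted p of a member was 0.108 (CCND2) and again none passed. At the brightest probe sets, no 95% interval reached beyond a 1.27-fold decrease (CDKN2D) or a 1.14-fold increase (CDK6). In the fit over all probe sets, some intervals of other probe sets reached further. On the log2 scale they went down to −0.83 for the second of CCND1 and −0.59 for the third of CDK6. The highest went up to 0.40, for the dimmest of CCND2.

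**Figure D1:**
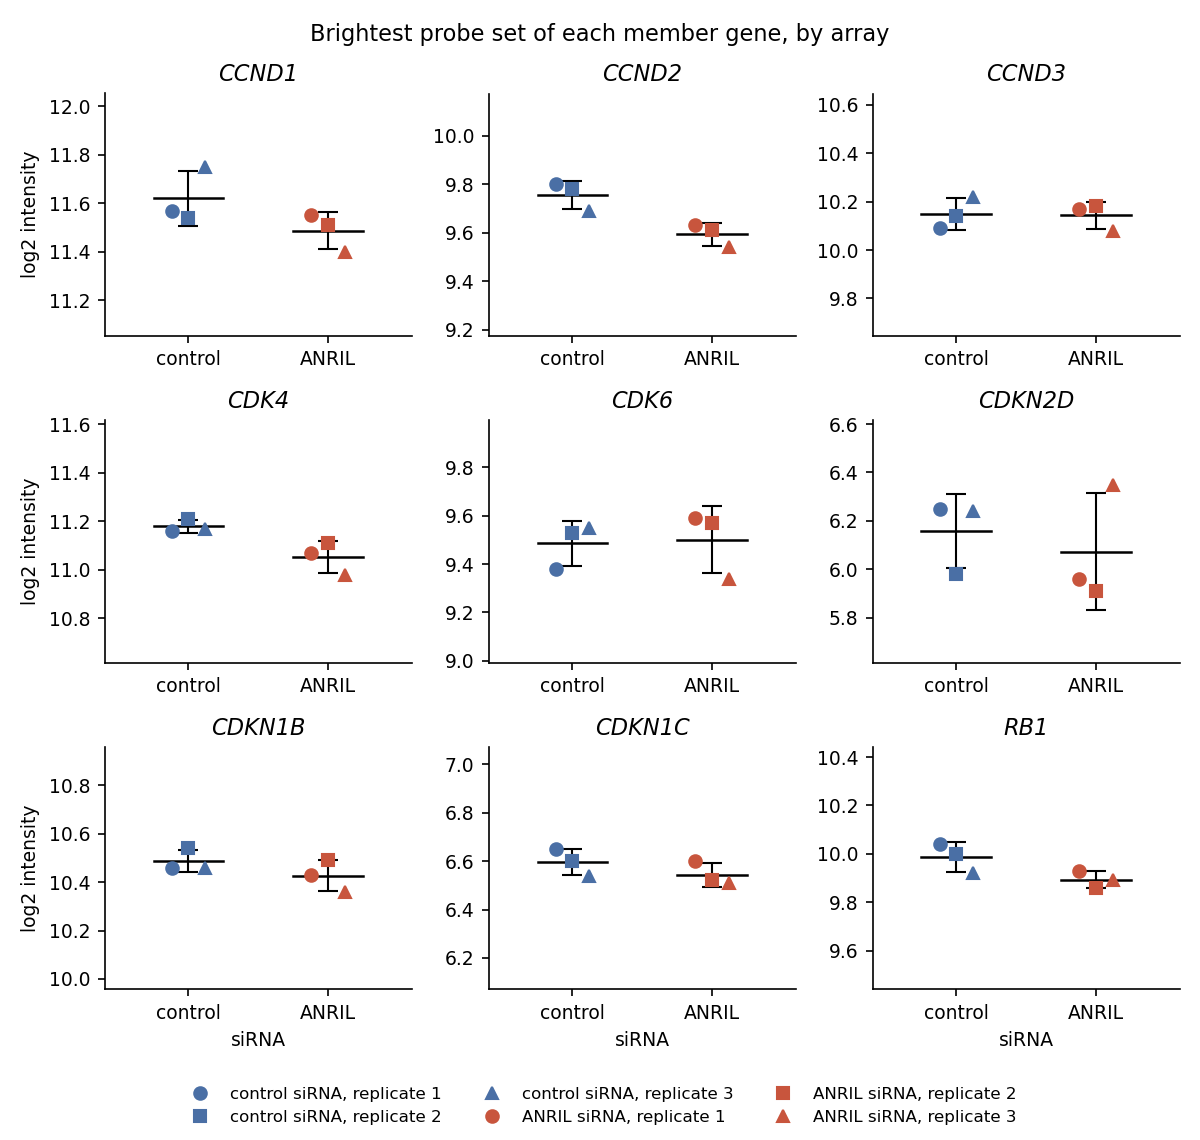
Log2 intensity of the brightest probe set of each of the 9 genes on the 6 arrays. Each point is 1 array, the bar is the group mean with its SD, and every panel spans the same 1 log2 unit around its own mean. The groups are apart only for CCND2 and CDK4, and the third ANRIL siRNA replicate is the lowest array in 7 of 9 panels.

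The direction was mostly downward. Of the 9 genes, 8 lay below 0 with a median of −0.08, against 51.4% of all genes and a median of 0. Most of the 9 were bright, and 78.8% of genes in the ninth decile of signal and 87.7% in the tenth lay below 0. The ANRIL siRNA arrays did not overlap the control arrays, all being lower, at 2 of the 9 genes (CCND2 and CDK4). Of all genes 12.8% were so, with 22.7% in the ninth decile of signal and 33.2% in the tenth. No member was higher without overlap, where 10.6% of genes were. The array of ANRIL siRNA replicate 3 gave the lowest of the 6 values at 7 of the 9 genes, and it was lowest at 26.4% of all genes and at 50.2% of the 6711 genes in the brightest 20% of the array. Without that array 7 of the 9 genes lay below 0, and no gene passed.

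CCND2, which encodes cyclin D2, had the smallest p of the 9 genes at their brightest probe sets. Its brightest probe set read 9.80, 9.78 and 9.69 with control siRNA against 9.63, 9.61 and 9.54 with ANRIL siRNA. Each ANRIL siRNA value was thus below the lowest control, by a margin smaller than the range within either group. The difference was −0.16 ± 0.06 (SE, n = 3 per group), with a 95% interval of −0.30 to −0.03 (adjusted p = 0.215), or 1.12-fold lower. Leaving out 1 array at a time gave −0.20 to −0.14, but the difference was −0.09 after cyclic loess (adjusted p = 0.507), −0.08 after a repeated quantile step and −0.01 as the mean of all 4 probe sets. The other 3 CCND2 probe sets were dimmer and their groups overlapped. They differed by −0.05 ± 0.09 at percentile 57.4 of signal, 0.04 ± 0.08 at 34 and 0.13 ± 0.12 at 21.5. Only the brightest of the 4 probe sets was thus lower without overlap. Group means (control, then ANRIL siRNA) were 5.29 and 5.33 at percentile 34, and 4.57 and 4.70 at percentile 21.5. Genes of other organs, a reference for the floor of the array, had a median of 5.34. Probe sets this dim can say little about a change.

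CCND1 encodes cyclin D1, the D cyclin that many mitogens induce. At its brightest probe set, at percentile 97, the controls read 11.57, 11.54 and 11.75 and the ANRIL siRNA arrays 11.55, 11.51 and 11.40. ANRIL siRNA replicate 1 lay above the lowest control, and the spread came mostly from the third replicate of each group. The difference was −0.13 ± 0.07 (95% interval −0.30 to 0.03, adjusted p = 0.369). It was −0.05 after cyclic loess, −0.04 after a repeated quantile step, −0.07 without control replicate 3 and −0.26 as the mean of both probe sets. The second probe set gave the largest difference of the family, −0.40 ± 0.19, with values of 10.54, 9.62 and 9.78 against 9.68, 9.58 and 9.49. Control replicate 1 stood 0.76 above the next array there, and without it the difference was −0.12. Its adjusted p was 0.361 over all probe sets, so neither probe set of CCND1 passed.

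CCND3, the gene of cyclin D3, differed least among the D cyclins. It read 10.09, 10.14 and 10.22 in the controls and 10.17, 10.18 and 10.08 with ANRIL siRNA, and the groups were interleaved. The difference was −0.01 ± 0.06, with a 95% interval of −0.15 to 0.13 (adjusted p = 0.946). Its dimmer probe set also differed by −0.01 ± 0.08. The first of these turned to 0.07 with cyclic loess, 0.08 with repeated quantile normalization, 0.03 when control replicate 3 was left out and 0.02 when ANRIL siRNA replicate 3 was.

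Of the kinases, CDK4 has 1 probe set, which read 11.16, 11.21 and 11.17 with control siRNA against 11.07, 11.11 and 10.98 with ANRIL siRNA. The groups did not overlap, although the nearest arrays were 0.05 apart. CDK4 differed by −0.13 ± 0.06 (95% interval −0.26 to 0.01, adjusted p = 0.301), a 1.09-fold lower level. After cyclic loess the difference was −0.05.

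CDK6, the second partner of the D cyclins, was read by 7 probe sets that did not move alike. The brightest read 9.38, 9.53 and 9.55 in the controls and 9.59, 9.57 and 9.34 with ANRIL siRNA, with the groups interleaved and a difference of 0.01 ± 0.08 (95% interval −0.17 to 0.19, adjusted p = 0.953). This value turned to −0.04 with arrays centred on their medians and to −0.05 as the mean of all 7 probe sets. The next probe set in signal read 8.75, 8.76 and 8.68 against 8.65, 8.66 and 8.56, without overlap, and differed by −0.11 ± 0.07. The third gave the smallest adjusted p of the 26 probe sets, 0.257, at −0.33 ± 0.12. It read 8.61, 8.82 and 8.39 with control siRNA against 8.21, 8.46 and 8.15 with ANRIL siRNA, and control replicate 3 lay below ANRIL siRNA replicate 2. Leaving out 1 array at a time kept it between −0.44 and −0.23. The fourth, at percentile 56.7, differed by 0.16 ± 0.08 in the other direction, with values of 6.56, 6.42 and 6.49 against 6.76, 6.55 and 6.63. The remaining 3 lay between −0.06 and 0. Probe sets of 1 gene can read different transcript ends or isoforms, and which CDK6 transcripts each one reads was not analysed here.

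Among the INK4 inhibitors, CDKN2D encodes p19. Its 2 probe sets, at percentiles 48.8 and 45 of signal, pointed in opposite directions. Both lay within the range of genes of other organs, a reference for the floor of the array (4.08 to 8.64). The brighter read 6.25, 5.98 and 6.24 in the controls and 5.96, 5.91 and 6.35 with ANRIL siRNA, a difference of −0.08 ± 0.12 (95% interval −0.34 to 0.17, adjusted p = 0.719). Leaving out ANRIL siRNA replicate 2 gave 0, and leaving out replicate 3 of that group gave −0.22. The dimmer read 5.93, 5.68 and 5.89 against 6.07, 5.84 and 6.05, a difference of 0.15 ± 0.09, and the groups overlapped at both. Of the INK4 genes at 9p21, CDKN2A read 9.65, 9.68 and 9.67 against 9.56, 9.54 and 9.46 and differed by −0.15 ± 0.06 (adjusted p = 0.237), and CDKN2B differed by −0.10 ± 0.06 (adjusted p = 0.426). After cyclic loess these were −0.07 and −0.06. The CDKN2A probe set has a name ending in _x_at, which marks probes shared with other sequences. Which CDKN2A transcripts it reads was not analysed here.

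CDKN1B, the gene of the CIP/KIP inhibitor p27, has 1 bright probe set. It read 10.46, 10.54 and 10.46 with control siRNA against 10.43, 10.49 and 10.36 with ANRIL siRNA. The groups overlapped, and the difference of −0.06 ± 0.06 (95% interval −0.19 to 0.08, adjusted p = 0.635) turned to 0.02 with cyclic loess and 0.03 with a repeated quantile step.

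CDKN1C encodes p57, an imprinted CIP/KIP inhibitor, and was read by 5 probe sets between percentiles 38 and 56.7. All 5 lay below 0, from −0.13 to −0.05, while the median over all probe sets in the deciles of signal that hold them was 0.05 to 0.06. The brightest read 6.65, 6.60 and 6.54 in the controls and 6.60, 6.52 and 6.51 with ANRIL siRNA, with overlap and a difference of −0.05 ± 0.06 (95% interval −0.19 to 0.08, adjusted p = 0.672). Only the second was without overlap, at 6.63, 6.59 and 6.58 against 6.44, 6.43 and 6.55. It differed by −0.13 ± 0.07 (adjusted p = 0.379 over all probe sets) and by −0.17 after cyclic loess. The 3 brightest have names ending in _x_at, which marks probes shared with other sequences, so the 5 are not independent readings. These levels lie within the range of genes of other organs used as a reference for the floor of the array, whose brightest probe sets ran from 4.08 to 8.64 with a median of 5.34.

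RB1, the pocket protein that the kinases phosphorylate, read 10.04, 10 and 9.92 with control siRNA against 9.93, 9.86 and 9.89 with ANRIL siRNA. Only ANRIL siRNA replicate 1 reached into the control range, above the lowest control by 0.01. RB1 differed by −0.09 ± 0.06 (95% interval −0.23 to 0.04, adjusted p = 0.431), and by −0.01 after cyclic loess. Its second probe set, at percentile 26.8, differed by −0.03 ± 0.12.

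**Figure D2:**
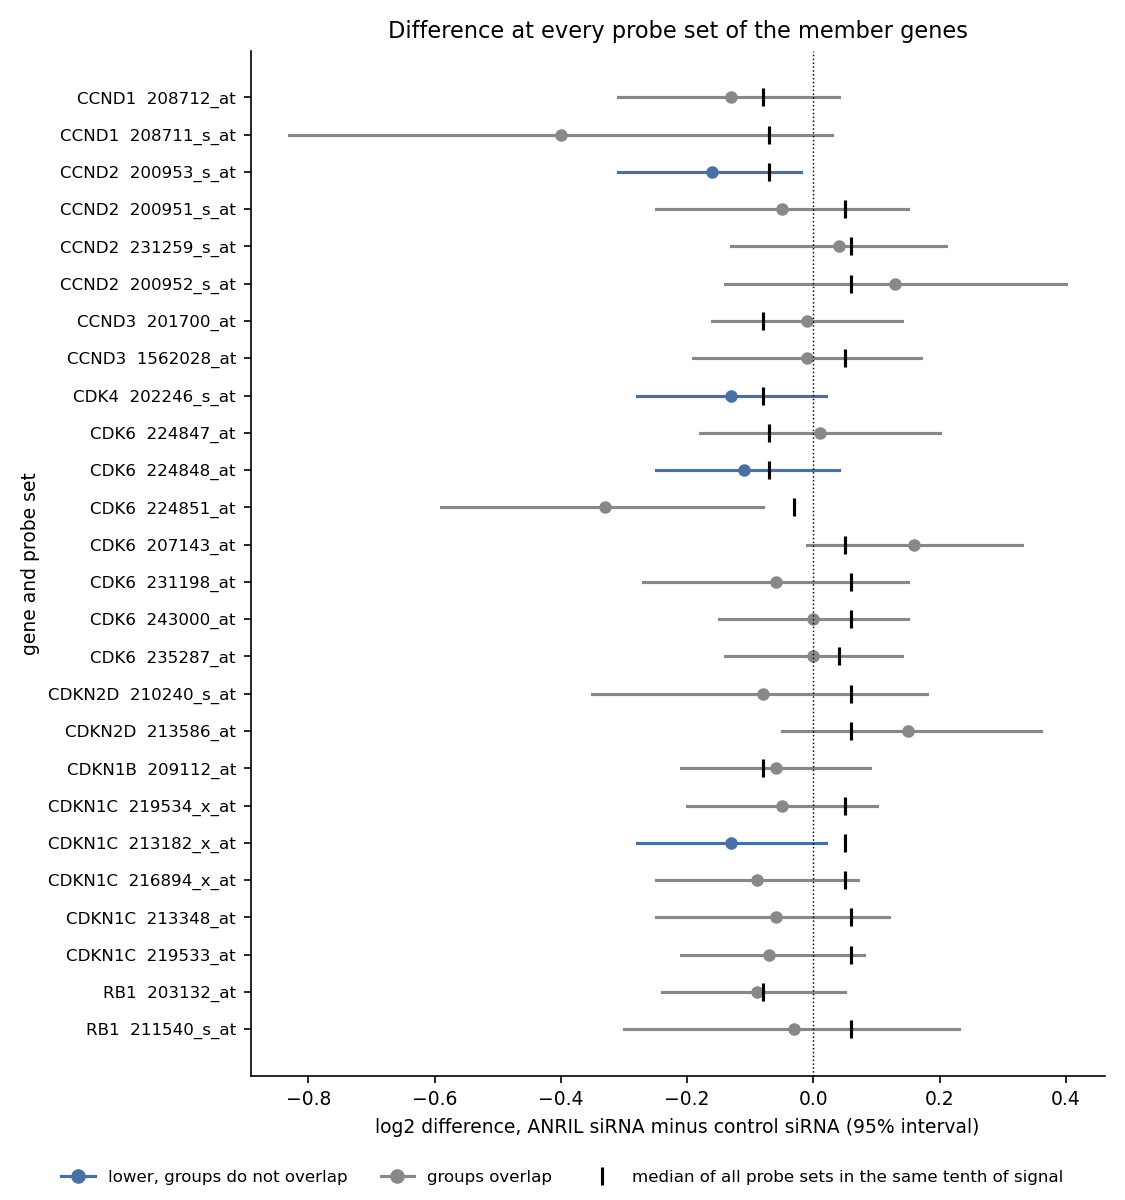
Log2 difference at each of the 26 probe sets, with 95% intervals from the fit over all probe sets. Black ticks mark the median difference of all probe sets in the same decile of signal. Blue marks the 4 probe sets at which every ANRIL siRNA array is below every control array, and none is higher without overlap.

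Taking all 26 probe sets, 19 lay below 0, with a median of −0.06. The groups did not overlap at 4, all lower: 1 each of CCND2, CDK4, CDK6 and CDKN1C. Over all probe sets 9.97% were lower without overlap and 11% higher. At an unadjusted p under 0.05 there were 2 member probe sets lower (of CCND2 and CDK6) and 0 higher, where 6.14% of all probe sets were lower and 8.96% higher.

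At their brightest probe sets 7 of the 9 genes lay in the brightest 20% of the array, and bright probe sets in general read lower with ANRIL siRNA. There, 9093 of 10923 probe sets (83.2%) lay below 0, with a median of −0.07, and 3262 were lower without overlap. Of the 9 member probe sets in this range, 8 lay below 0, with a median of −0.11, and 3 were lower without overlap. Among dimmer probe sets the general lean was upward, with 36.8% below 0 and a median of 0.04. Of the 17 dimmer members, 11 lay below 0, with a median of −0.05. After cyclic loess, which removes a trend with signal, 6 of the 9 genes lay below 0 at their brightest probe set, and the smallest adjusted p of a member was 0.474 (CDKN1C).

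**Figure D3:**
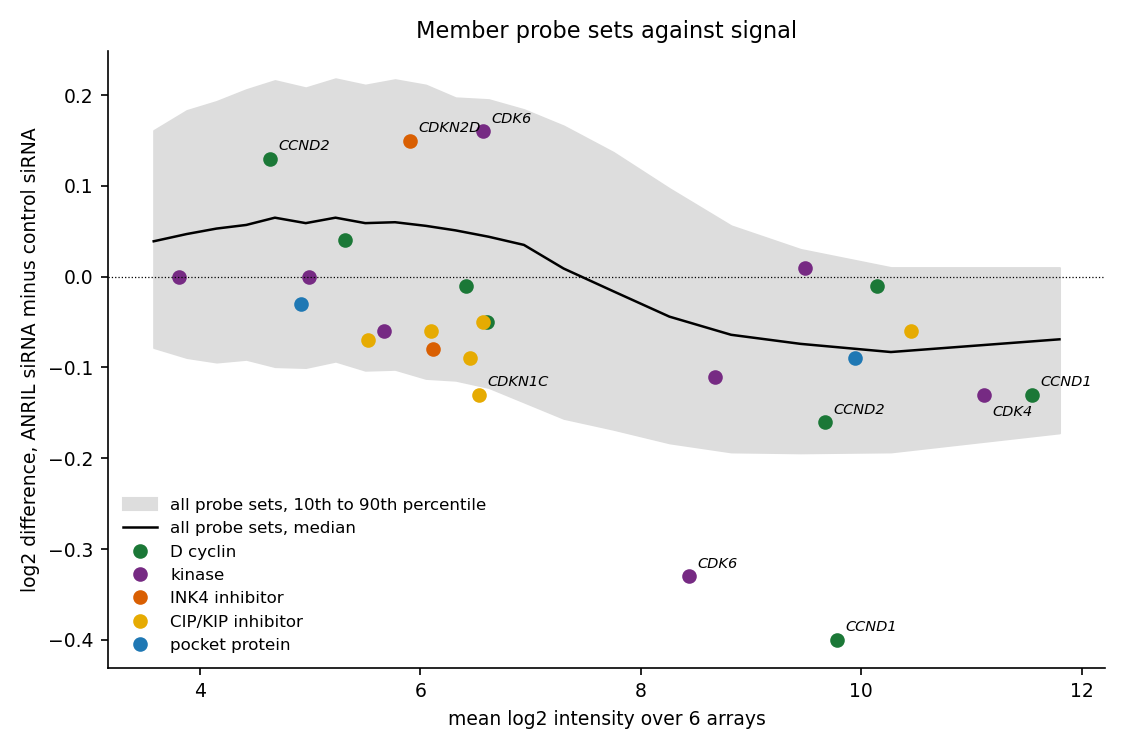
Log2 difference against mean log2 intensity for the 26 member probe sets, coloured by role. The line is the median and the band the 10th to 90th percentile of all probe sets in bins of signal. The probe sets of CCND1 at −0.40 and of CDK6 at −0.33 lie furthest from the line.

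None of the genes that act beside the members passed either. Of 25 partners of the G1 kinases, 17 lay below 0 (14 after cyclic loess), with a median of −0.06 (−0.03). The groups did not overlap at 6 of them, all lower, where 12.8% of all genes, 22.7% of those in the ninth decile of signal and 33.2% of those in the tenth were lower without overlap. The partners had a median signal percentile of 83.7. The 4 of smallest p were CDK7, the kinase that activates cyclin-dependent kinases (−0.21 ± 0.06, adjusted p = 0.164), FBXW7, which marks cyclin E for degradation (−0.18 ± 0.06, adjusted p = 0.178), TFDP2, a dimer partner of E2F factors (−0.19 ± 0.06, adjusted p = 0.186), and CDKN2A. CDK7 read 10.75, 10.76 and 10.77 in the controls and 10.57, 10.60 and 10.50 with ANRIL siRNA, the widest gap between groups among these 4. It passed with the intensity-trended robust prior (adjusted p = 0.0305) but not when that prior was combined with cyclic loess, and cyclic loess alone gave −0.12. The cyclin E genes differed by −0.02 ± 0.06 (CCNE1) and −0.18 ± 0.13 (CCNE2), CDK2 by −0.05 ± 0.06, MYC by −0.10 ± 0.06 and CDKN1A, the gene of p21, by 0.03 ± 0.06. After cyclic loess CCNE1 was at 0.04, CCNE2 at −0.24, CDK2 at 0.02, MYC at −0.01 and CDKN1A at 0.11.

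Of 27 measured E2F target genes of S phase entry, 17 lay below 0 and 10 above, with a median of −0.06 (16 below and −0.02 after cyclic loess), and none passed. The groups did not overlap at 4 lower and 4 higher genes, near the shares of all genes (12.8% lower and 10.6% higher). E2F8, a repressor of the E2F family, had the smallest p and differed by −0.29 ± 0.07, with 7.01, 7.07 and 7.06 against 6.83, 6.80 and 6.64 (adjusted p = 0.147). TK1, the cytosolic thymidine kinase, went the other way at 0.24 ± 0.07, with 7.90, 7.92 and 8.03 against 8.16, 8.13 and 8.26 (adjusted p = 0.158). TYMS, the thymidylate synthase gene, differed by −0.21 ± 0.06 (adjusted p = 0.167) and MCM7, a subunit of the replicative helicase, by −0.23 ± 0.07 (adjusted p = 0.17). TYMS passed with the intensity-trended robust prior (adjusted p = 0.0396) but not when cyclic loess, which alone gave −0.13, was added, and E2F8 reached 0.0508 with that prior. An E2F sequence of the 4 above stood in 13 of the 35 promoter windows of this list. It stood in 6 of the 30 windows of the partners and 4 of the 16 of the mitotic genes, against 3.31% of all windows. Whether such a sequence went with a difference between the groups was not tested.

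Mitotic genes lay on both sides of 0. Of 18 measured, 8 lay below 0 and 10 above, with a median of 0.01, but 12 lay below 0 after cyclic loess (median −0.02), and none passed. Those of smallest p were CCNB1, the gene of cyclin B1 (−0.17 ± 0.06, adjusted p = 0.204), NUSAP1, a spindle protein (−0.14 ± 0.07, adjusted p = 0.325), and the checkpoint kinases TTK (0.15 ± 0.08, adjusted p = 0.334) and BUB1 (0.18 ± 0.11, adjusted p = 0.403). CCNB1 read 8.19, 8.28 and 8.18 against 8.09, 8.05 and 7.98, and was the 1 gene of this list that was lower without overlap, where 12.8% of all genes were. CENPE, a kinesin of the kinetochore, was the 1 higher without overlap, at 5.89, 5.86 and 5.84 against 5.90, 5.92 and 5.90, where 10.6% of all genes were, and its difference of 0.04 ± 0.06 turned to −0.02 after cyclic loess. The values of TTK and BUB1 after cyclic loess were 0.09 and 0.12.

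**Figure D4:**
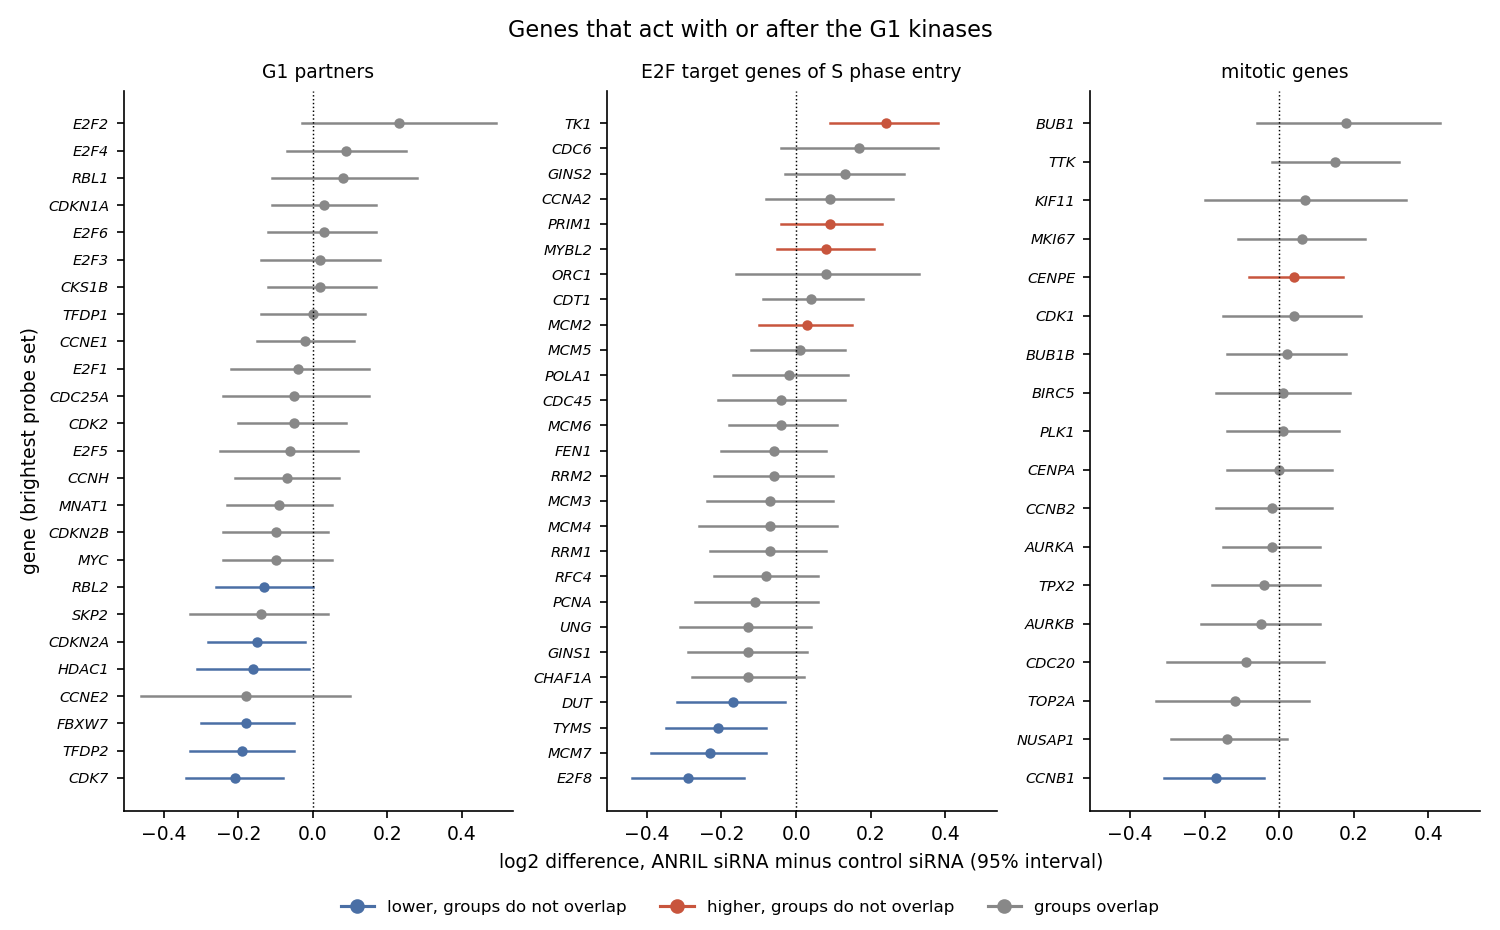
Log2 difference with its 95% interval for the brightest probe set of each gene in 3 lists: partners of the G1 kinases, E2F targets of S phase entry and mitotic genes. Blue genes are lower and red genes higher without overlap between groups. Medians are −0.06, −0.06 and 0.01, and E2F8 at −0.29 and TK1 at 0.24 are both without overlap.

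The pattern of CCND2 over the 6 arrays was shared by many genes. Among 13020 genes above the median signal, 726 had a Pearson r over 0.9 with it. The 3 highest were MINPP1, an inositol polyphosphate phosphatase (r = 0.997), KLF10, a transcription factor induced by TGF-beta (0.996), and SPATA18, a p53 target (0.995). They differed by −0.15 ± 0.06, −0.17 ± 0.06 and −0.23 ± 0.07. These 6 points share the array, its normalization and the difference between groups, and r is given as a description.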

How the data were processed

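Expression was measured on 6 arrays, 3 per group. The deposited values are log2 intensities of probe sets. Per the submitters' processing notes, RMA, affy and limma were used. The sources used here do not give their versions or a genome build. From the deposited table, 62 control probe sets were left out. The platform annotation gave 1 gene symbol for 41091 of the rest, several for 1801 (never used for a name) and had no entry for 11721. Entrez identifiers updated the symbols, with 41037 matched in RefSeq.

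The comparison used limma 3.58.1 (lmFit, then eBayes without a trend) under R 4.3.3, with Benjamini-Hochberg adjustment over all probe sets, or over genes with the brightest probe set of each. The brightest probe set of a gene carries the gene fit, other probe sets the probe set fit. The fit was tested on simulated data. All 10 members were named, and in the lists the 4 genes of smallest p, others being named after their values were seen. Members, lists and tests were chosen with earlier results of these data known.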

Additional observations from a re-analysis of the deposited data

How the results depend on the processing

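No member gene or probe set was called under any setting run: a replicate block, cyclic loess alone or with an intensity-trended robust prior, that prior alone, weighting of arrays, a repeated quantile step, centring, a filter at the median signal, an adjusted p under 0.1, other probe set rules, and each array left out. CDKN2D is absent above the median signal, and CCND2 and CDK4 have no probe set outside _s_at and _x_at. The counts over all features did move. With the trended robust prior 315 probe sets and 426 genes were lower and 29 and 115 higher, with cyclic loess added 58 and 75 lower and 20 and 59 higher, with arrays centred 4 and 31 lower and 0 and 1 higher, and above the median signal 1 and 25 lower and 0 and 7 higher. Same-numbered arrays correlated in their deviations at 0.061, 0.139 and −0.04, and not every array correlated best with its own number. Correlations this weak cannot settle whether equal numbers share a donor or a day. With the replicate block CCND2 differed by −0.16 (adjusted p = 0.188) and 0 genes were called.

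Members of small difference turned sign. CCND3 was at 0.08 after quantile normalization and 0.07 after cyclic loess with either prior, CDKN1B at 0.03 and 0.02, and the CCND2 probe set of rank 3 at −0.02 under these and −0.01 with arrays centred. CDK6 was at −0.04 with arrays centred and −0.05 as the mean of all probe sets, and CDKN2D at 0.04 as that mean and 0.15 without _s_at and _x_at probe sets. With each array left out in turn, CCND3 ran from −0.04 to 0.03 and CDK6 from −0.04 to 0.09. Dimmer probe sets ran from −0.11 to 0.03 (CCND2, rank 2), −0.02 to 0.09 (CCND2, rank 3), −0.07 to 0.05 (CCND3), −0.14 to 0.04 (CDK6, rank 5) and −0.14 to 0.09 (RB1). The cause of these turns was not tested.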
